A study of Mus musculus with 8 samples.

Results

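Immediate-early genes are transcribed within minutes of a stimulus, without new protein synthesis, and heat shock genes follow misfolded protein. The 35 genes described here are a list of both kinds that is commonly used to mark stress from tissue dissociation, and they were taken by symbol from the gene column of the deposited tables. All 35 were found among 21968 gene symbols, and all 35 were among the 14404 genes tested. By role, 8 belong to the AP-1 group, 10 are zinc finger or nuclear receptor factors, 6 are immediate early response or growth arrest genes, 6 are feedback inhibitors and 5 are heat shock genes.

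Bulk RNA-seq was made from 4 liver cell groups of Lgr5-LacZ transgenic mice on a mixed C57BL/6 and CBA background. The groups were F4/80high cells with b-galactosidase activity (b-gal+), F4/80high cells without it (b-gal-), EpCAM-positive cells, named cholangiocytes (bile duct cells) in the series text, and hepatocytes. Each group had 2 libraries, and each library pooled cells of 2 mice. All mice had received 1 CCl4 injection into the peritoneum, at 1 µl per g of body weight in rapeseed oil, and livers were taken 6 days later, so every group shared the transgene and the injury. Mice were 10 to 12 weeks old by the labels of the samples, while the text on the whole series starts at 7 weeks. CCl4 is a hepatotoxin that kills the hepatocytes around the central vein. Activity was read with FDG, a substrate that fluoresces once b-galactosidase cleaves it, and by the series title the activity is endogenous. All livers were perfused with warm collagenase, and tissue left undissociated was digested with Pronase. Hepatocytes were pelleted at low speed and collected at that point. The other 3 groups went on through red cell lysis, FDG loading, antibody staining and flow sorting, so cell type and handling cannot be told apart in any comparison with hepatocytes. No label says whether the replicates of a group came from different mice, days or batches, so p-values measure the spread between these libraries, which may in part be technical.

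AP-1 is a dimer of Fos and Jun family proteins that binds a short palindrome near many stimulus-responsive genes. MAP kinases start the response by phosphorylating factors already bound to DNA, among them SRF with its partners at CArG boxes and CREB at cAMP response elements. The first wave includes its own brakes, namely phosphatases for the MAP kinases (Dusp genes), an RNA-binding protein that destabilises early mRNAs (Zfp36), a cytokine receptor inhibitor (Socs3) and the NF-kB inhibitor IkB-alpha (Nfkbia). In liver, enzymatic perfusion and warm digestion are known triggers of this response, as are partial hepatectomy and toxic injury.

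Libraries held 16948568 to 24549242 reads in named genes. Markers of the gates did not all follow their labels. The summed level of 12 Kupffer cell markers was 41401 and 38290 CPM (reads of a gene scaled to a common library size with TMM factors, as used for all levels) in the b-gal+ libraries, against 4177 and 2764 CPM in the b-gal- libraries. The 12 sinusoidal endothelial markers summed to 4472 and 3317 CPM in b-gal+ cells, against 23238 and 26903 CPM in b-gal- cells. EpCAM-positive libraries held 2129 and 7036 CPM of 12 cholangiocyte markers, and also 9959 and 8356 CPM of the endothelial markers and 4318 and 1668 CPM of the 8 B and plasma cell markers found. Spp1 alone gave 1837 and 5686 CPM of the cholangiocyte sum. It also stood at 655 and 53.5 CPM in b-gal+ cells and at 1263 and 78.6 CPM in b-gal- cells. The 12 hepatocyte markers summed to 180193 and 267114 CPM in hepatocytes and to between 163 and 5026 CPM elsewhere, the highest value being EpCAM-positive replicate 2. Every listed Kupffer and endothelial marker had reads in every library. Their part in the results below was not tested. In bulk libraries fewer cells of a type and less RNA per cell cannot be told apart.

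Promoter sequences, defined as 250 bases before to 50 bases after a gene's start, were available from RefSeq on GRCm38.p6 for 29 of the 35 genes, in 34 windows. Fosl1, Egr1, Egr3, Myc, Ier2 and Hspa8 had no window and were not searched. Both strands were searched for 5 motifs. The cAMP response element (TGACGTCA) was in 2 windows, those of Btg2 and Dusp1, or 5.88% of member windows, against 1.79% of all 32851 windows. The CArG box (by name, CC and GG around A or T bases) was in 6 windows of 3 genes (Dusp5, Egr2 and Zfp36), or 17.6% against 1.63%, but 4 of those windows are alternative starts of Egr2. The kappa B site was in 9 windows, or 26.5% against 8.46%, including that of Nfkbia. The heat shock element core (GAANNTTC) was in 5 windows (Fosl2, Hspa1a, Hspa1b, Hspb1 and Jun), or 14.7% against 7.86%. Hspa1a and Hspa1b, whose promoters are near-identical, count as separate windows here and among the kappa B windows. The AP-1 site (TGANTCA) was in none of the member windows and in 7.81% of all windows. The letters of the cAMP response element do not contain the AP-1 site. A match is a description of letters only.

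The 250 bases before the start are shown for 6 genes that the results below turn on. Dusp1 and Btg2, both higher in b-gal+ cells, have the cAMP response element. Zfp36, the member with the highest level per kb of transcript in hepatocytes alongside Ier2, has the CArG box. Nfkbia has a kappa B site, and the Hspa1a and Hspa1b pair has the heat shock core at the same place. Capitals mark the motif, and all 6 lie on the minus strand of GRCm38.p6, printed 5′ to 3′ as transcribed. The windows are chr17:26508473-26508722 for Dusp1, chr1:134079156-134079405 for Btg2, chr7:28379229-28379478 for Zfp36, chr12:55492648-55492897 for Nfkbia, chr17:34972157-34972406 for Hspa1a and chr17:34959239-34959488 for Hspa1b.
Dusp1: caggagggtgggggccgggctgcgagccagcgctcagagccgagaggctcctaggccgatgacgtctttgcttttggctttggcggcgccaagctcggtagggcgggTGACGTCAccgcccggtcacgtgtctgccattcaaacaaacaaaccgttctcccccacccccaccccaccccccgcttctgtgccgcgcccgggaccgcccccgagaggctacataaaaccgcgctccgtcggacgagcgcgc
Btg2: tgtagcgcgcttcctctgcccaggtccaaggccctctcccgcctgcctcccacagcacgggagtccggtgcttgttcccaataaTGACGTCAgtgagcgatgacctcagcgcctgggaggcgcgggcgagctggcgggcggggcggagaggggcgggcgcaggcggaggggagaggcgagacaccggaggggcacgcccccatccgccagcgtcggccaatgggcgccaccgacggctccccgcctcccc
Zfp36: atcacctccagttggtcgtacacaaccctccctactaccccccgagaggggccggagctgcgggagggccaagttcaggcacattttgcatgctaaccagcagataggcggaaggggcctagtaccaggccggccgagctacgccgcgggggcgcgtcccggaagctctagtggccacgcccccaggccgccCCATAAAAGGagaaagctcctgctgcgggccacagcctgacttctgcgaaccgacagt
Nfkbia: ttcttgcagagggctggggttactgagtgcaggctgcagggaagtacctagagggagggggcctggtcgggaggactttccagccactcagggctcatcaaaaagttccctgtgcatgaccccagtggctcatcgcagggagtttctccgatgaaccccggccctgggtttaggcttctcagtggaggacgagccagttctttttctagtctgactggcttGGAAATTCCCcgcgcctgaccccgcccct
Hspa1a: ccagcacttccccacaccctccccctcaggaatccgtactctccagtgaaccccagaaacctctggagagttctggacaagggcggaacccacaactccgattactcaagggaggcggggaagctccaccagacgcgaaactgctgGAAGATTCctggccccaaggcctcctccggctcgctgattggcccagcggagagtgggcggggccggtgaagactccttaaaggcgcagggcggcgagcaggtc
Hspa1b: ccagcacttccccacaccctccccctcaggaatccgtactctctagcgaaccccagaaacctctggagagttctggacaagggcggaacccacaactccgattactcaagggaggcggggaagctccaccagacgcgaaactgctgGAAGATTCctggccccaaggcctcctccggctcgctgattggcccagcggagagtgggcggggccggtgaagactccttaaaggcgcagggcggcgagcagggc
Counted from the annotated start, the motif began at position -143 in Dusp1, -166 in Btg2, -58 in Zfp36 and -29 in Nfkbia. In both Hspa1 genes it began at -104. The Hspa1a and Hspa1b stretches were identical at 247 of 250 positions. The coding sequences of the pair are also near-identical, so reads may have been split between them or dropped in counting, and single values of either gene are uncertain.

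The 35 genes were short. Their median genomic span was 4461 bp, and 28 of 35 (80.0%) spanned under 10000 bp. Over 14000 genes tested with 1 annotated location the median was 23520 bp, and 25.1% were under that bound.

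The first result is how much of each library these genes took up. They held 2.49% and 2.36% of reads in the b-gal+ libraries, 1.65% and 1.62% in the b-gal- libraries and 2.36% and 3.64% in the EpCAM-positive libraries, against 0.140% and 0.102% in the hepatocyte libraries. Hepatocytes stood apart from the other 3 groups with no overlap. By exact binomial 95% intervals, which cover counting error only, the shares lay between 3.63% and 3.65% in the highest library, EpCAM-positive replicate 2, and between 0.101% and 0.103% in the lowest, hepatocyte replicate 2. Among the 100 genes with most reads, 9 were members in each b-gal+ library and 6 in each b-gal- library. EpCAM-positive replicates had 9 and 13 members there, and hepatocytes had 0. Fos, the DNA-binding AP-1 subunit on chromosome 12 (85473890 to 85477273, GRCm38), ranked 24th by reads in both b-gal+ libraries. It ranked 20th and 24th in b-gal- cells and 13th and 8th in EpCAM-positive cells, against 3083rd and 6935th in hepatocytes. Leaving out Fos, Jun, Egr1, Dusp1 and Zfp36, the other members still held 1.33% and 1.22% of reads in b-gal+ libraries, 0.849% and 0.773% in b-gal- libraries and 1.33% and 1.82% in EpCAM-positive libraries, against 0.0679% and 0.0515% in hepatocytes. Hepatocytes were thus lowest without those 5 genes as well.

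**Figure D1:**
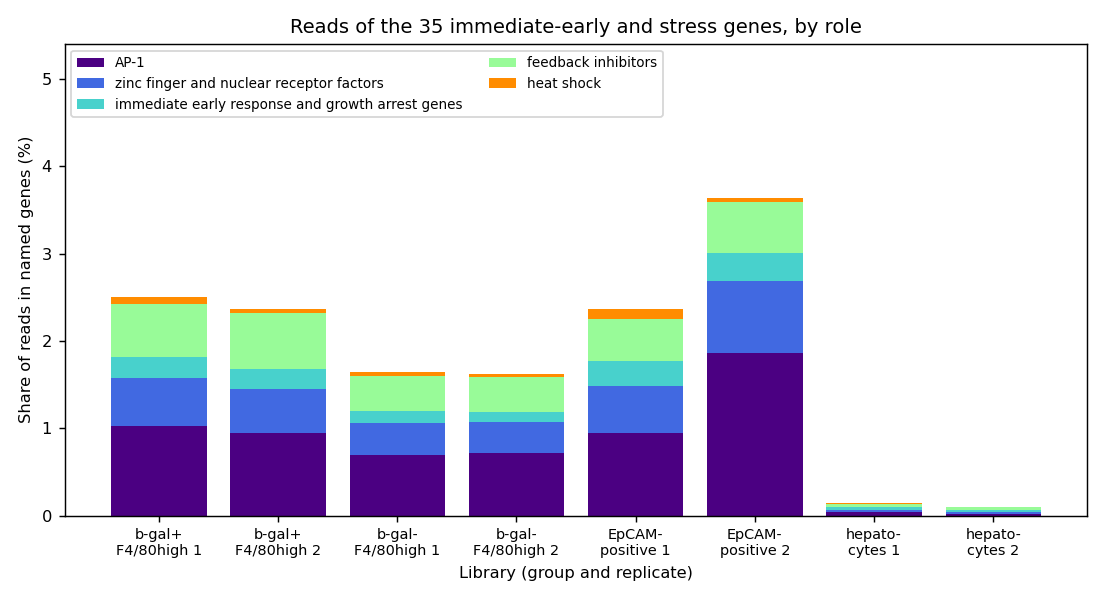
Share of reads in named genes (%, y axis) taken by the 35 genes in each of the 8 libraries (x axis), stacked by role; bars are single libraries, with no error. EpCAM-positive replicate 2 was highest at 3.64% and hepatocyte replicate 2 lowest at 0.102%.

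Set per kb of annotated exon, Fos had the highest mean level of the 35 genes in b-gal+ cells (1129 CPM per kb), b-gal- cells (821 CPM per kb) and EpCAM-positive cells (1075 CPM per kb). In hepatocytes Ier2 and Zfp36 were highest, at 144 CPM per kb each, and Fos stood at 20.5 CPM per kb. By mean CPM, hepatocytes were the lowest group for 34 of 35 genes. The exception was Hspb1, a small heat shock protein that stood at 1.03 and 0.764 CPM in b-gal+ cells and 0.443 and 1.44 CPM in hepatocytes. The highest group was EpCAM-positive for 17 genes, b-gal+ for 15 and b-gal- for 3. For most of the 35 genes the libraries of that group overlapped those of the next. Klf4, for example, averaged 333 CPM in both b-gal- and b-gal+ cells. Fosl1, a Fos relative, had 0 to 25 reads in every library, too few for a fold to be read from them.

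**Figure D2:**
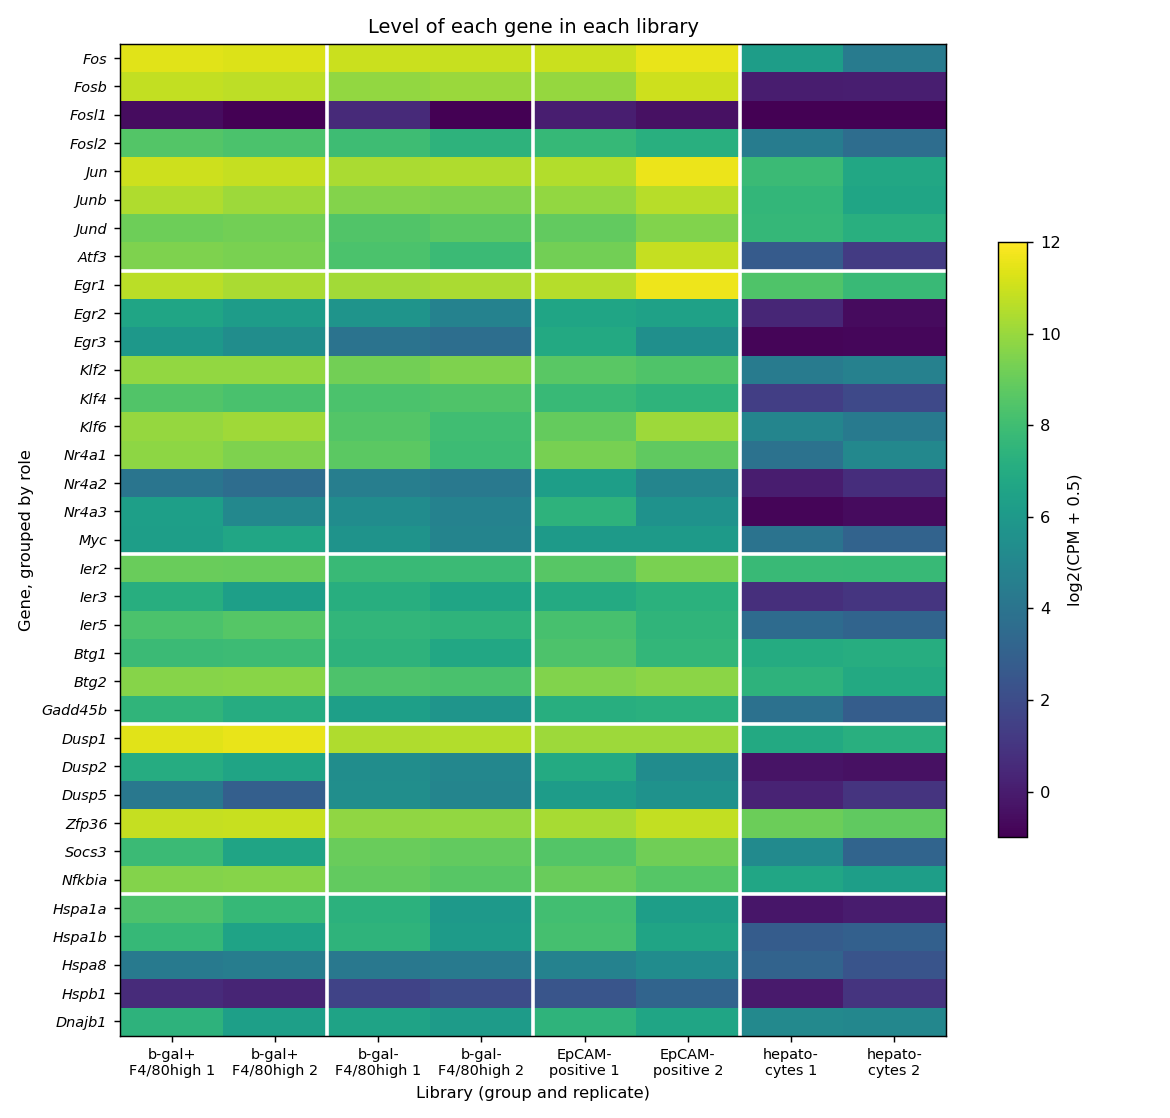
Level of each of the 35 genes (rows, grouped by role) in each of the 8 libraries (columns), as log2(CPM + 0.5) on the colour scale. Hepatocyte columns are darker for nearly all genes, and Fosl1 and Hspb1 are dark throughout.

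The question for the comparison with hepatocytes was how these genes differed between sorted non-parenchymal or epithelial cells and the pelleted hepatocytes. Against hepatocytes, 32 of the 35 genes rose in F4/80high cells (mean of b-gal+ and b-gal-) and none fell, by limma at adjusted p under 0.05 over all genes tested. Of all genes tested, 34.8% were called higher and 66.2% in either direction. In EpCAM-positive cells 34 of 35 rose and none fell, against 33.5% of all genes called higher and 62.5% called in either direction. The median log2 difference over the 35 genes was 3.87 in F4/80high cells and 3.98 in EpCAM-positive cells, and over all genes tested it was 0.16 and 0.15. Every F4/80high library was above both hepatocyte libraries for 32 genes, against 37.3% of all genes, and every EpCAM-positive library for 35 genes, against 44.0%. The comparisons share the hepatocyte libraries and are not independent of each other. Scaling by library totals moved the median of all genes up by 0.82 in F4/80high cells and by 1.22 in EpCAM-positive cells. It moved the share of higher among all called genes to 77.9%, against 52.6%, in F4/80high cells, and to 85.4%, against 53.5%, in EpCAM-positive cells. With the deposited scaling these shares were 78.9% and 84.9%. Under the 18 alternatives 30 to 34 members rose in F4/80high cells and 33 or 34 in EpCAM-positive cells, and none fell.

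Among the AP-1 genes, 7 of 8 rose against hepatocytes in both F4/80high and EpCAM-positive cells, and Fosl1 did not pass. Fos stood at 2750 and 2561 CPM in b-gal+ cells, 1964 and 1899 CPM in b-gal- cells and 2009 and 3048 CPM in EpCAM-positive cells, against 76.0 and 20.4 CPM in hepatocytes. All sorted libraries were far above both hepatocyte libraries, which differed from each other. The log2 difference from hepatocytes was 5.82 (SE 0.50, adjusted p = 6.9e-05) in F4/80high cells and 5.95 (SE 0.58, adjusted p = 1.8e-04) in EpCAM-positive cells. Fosb, which pairs with Jun as Fos does, had the largest log2 difference of the 35 genes. It stood at 1809 and 1677 CPM in b-gal+ cells, 947 and 1069 CPM in b-gal- cells and 995 and 2029 CPM in EpCAM-positive cells, against 0.517 and 0.559 CPM in hepatocytes, which was 7 reads in each hepatocyte library. Its log2 difference was 10.32 (SE 0.27, adjusted p = 3.0e-06) in F4/80high cells and 10.42 (SE 0.31, adjusted p = 9.3e-06) in EpCAM-positive cells.

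Atf3, a stress-induced bZIP factor that represses many of its targets, was likewise near the bottom of the scale in hepatocytes. It stood at 726 and 666 CPM in b-gal+ cells, 317 and 228 CPM in b-gal- cells and 595 and 1869 CPM in EpCAM-positive cells, against 6.05 and 1.92 CPM in hepatocytes. The F4/80high difference was 6.77 on the log2 scale (SE 0.54, adjusted p = 4.7e-05) and the EpCAM-positive difference 8.05 (SE 0.62, adjusted p = 6.7e-05). The Jun genes differed less. Jun stood at 2051 and 1881 CPM in b-gal+ cells, 1309 and 1391 CPM in b-gal- cells and 1433 and 3111 CPM in EpCAM-positive cells, against 232 and 110 CPM in hepatocytes. Jund, a Jun gene expressed in most resting tissues, differed by 1.44 (SE 0.23, adjusted p = 0.00134) in F4/80high cells and by 1.78 (SE 0.27, adjusted p = 0.00124) in EpCAM-positive cells. Junb and Fosl2 lay between, at 2.80 and 4.00 in F4/80high cells and 3.15 and 3.40 in EpCAM-positive cells.

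All 10 zinc finger and nuclear receptor factors rose against hepatocytes in both F4/80high and EpCAM-positive cells, with a median log2 difference of 4.82 in F4/80high cells and 5.07 in EpCAM-positive cells. Egr1, a serum-responsive zinc finger factor, kept a sizeable level in hepatocytes. It stood at 1622 and 1282 CPM in b-gal+ cells, 1179 and 1299 CPM in b-gal- cells and 1519 and 3241 CPM in EpCAM-positive cells, against 341 and 225 CPM in hepatocytes. Its log2 difference was 2.27 (SE 0.38, adjusted p = 0.00158) in F4/80high cells, and in EpCAM-positive cells the ratio of mean CPM was 8.42 (adjusted p = 0.00105). Its relative Egr3 was almost without reads in hepatocytes, at 1 read in each library. Summed reads gave a ratio to hepatocytes of 418 in F4/80high cells (95% interval 115 to 3449, counting error only) and of 1116 in EpCAM-positive cells (309 to 9218). Klf4 and Klf2, factors that hold vascular endothelium in a quiescent state and also act in macrophages, rose by 6.74 and 5.07 in F4/80high cells and by 5.98 and 3.98 in EpCAM-positive cells. The orphan receptor Nr4a1 stood at 899 and 729 CPM in b-gal+ cells, 423 and 242 CPM in b-gal- cells and 645 and 449 CPM in EpCAM-positive cells, against 14.2 and 33.0 CPM in hepatocytes. Nr4a3 had 1 and 2 reads in hepatocytes, and its ratio of summed reads was 390 in F4/80high cells (133 to 1893) and 984 in EpCAM-positive cells (336 to 4771). Myc, a regulator of growth and ribosome production, differed by 2.31 (SE 0.30) in F4/80high cells and by 2.53 (SE 0.35) in EpCAM-positive cells.

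Of the 6 immediate early response and growth arrest genes, 5 rose in F4/80high cells and 6 in EpCAM-positive cells against hepatocytes. Ier2, a short early response gene, stood at 520 and 503 CPM in b-gal+ cells, 227 and 236 CPM in b-gal- cells and 391 and 657 CPM in EpCAM-positive cells, against 221 and 217 CPM in hepatocytes. The b-gal- libraries were close above the hepatocyte libraries, and the F4/80high difference of 0.65 (SE 0.22) had adjusted p = 0.0353. That call was lost without any 1 of the 4 F4/80high libraries or either hepatocyte library (adjusted p 0.0750 to 0.174), with edgeR (0.0579) and with DESeq2 size factors (0.0519). Btg1, an inhibitor of proliferation, stood at 236 and 240 CPM in b-gal+ cells, 168 and 112 CPM in b-gal- cells and 332 and 192 CPM in EpCAM-positive cells, against 126 and 136 CPM in hepatocytes. It did not pass in F4/80high cells (0.46, SE 0.26, adjusted p = 0.156). In EpCAM-positive cells it rose by 0.94 (SE 0.30, adjusted p = 0.0286), a call that was lost without EpCAM-positive replicate 1, either hepatocyte library or either b-gal+ library, and with only the groups compared (adjusted p 0.0513 to 0.142). Ier3, an early gene linked to cell survival, differed far more, by 5.93 (SE 0.27) in F4/80high cells and by 6.24 (SE 0.32) in EpCAM-positive cells.

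All 6 feedback inhibitors rose against hepatocytes in both F4/80high and EpCAM-positive cells. Dusp1, a phosphatase that switches off p38 and JNK, was one of the most abundant members in F4/80high cells. It stood at 2715 and 3029 CPM in b-gal+ cells, 1386 and 1441 CPM in b-gal- cells and 1084 and 1087 CPM in EpCAM-positive cells, against 117 and 148 CPM in hepatocytes. Its 4 groups did not overlap. Zfp36 stood at 1836 and 1893 CPM in b-gal+ cells, 931 and 956 CPM in b-gal- cells and 1239 and 1789 CPM in EpCAM-positive cells, against 540 and 457 CPM in hepatocytes. Its log2 difference was the smallest of the 6, at 1.41 (SE 0.27, adjusted p = 0.00291) in F4/80high cells and 1.58 (SE 0.31, adjusted p = 0.00396) in EpCAM-positive cells. Dusp2, a phosphatase of immune cells that acts on ERK and p38, had 4 and 3 reads in hepatocytes, and its ratio of summed reads was 280 in F4/80high cells (136 to 697) and 314 in EpCAM-positive cells (152 to 782). Nfkbia differed by 2.69 (SE 0.20, adjusted p = 3.9e-05) in F4/80high cells and by 2.31 (SE 0.24, adjusted p = 2.2e-04) in EpCAM-positive cells.

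The heat shock members rose in 4 of 5 cases in F4/80high cells and in 5 of 5 in EpCAM-positive cells against hepatocytes. Hspa1a and Hspa1b, on chromosome 17 at 34969190 to 34972156 and 34956436 to 34959238 (GRCm38), encode the inducible Hsp70. Because reads of the pair are hard to assign, their sum is given. It was 541 and 300 CPM in b-gal+ cells, 341 and 133 CPM in b-gal- cells and 554 and 172 CPM in EpCAM-positive cells, against 6.79 and 7.98 CPM in hepatocytes. Within each sorted group replicate 1 was higher, and every sorted library was above both hepatocyte libraries. Taken singly, Hspa1a differed by 7.46 (SE 0.57, adjusted p = 3.9e-05) in F4/80high cells and by 7.30 (SE 0.66, adjusted p = 1.2e-04) in EpCAM-positive cells, on 5 and 6 reads in hepatocytes. Dnajb1, the Hsp40 partner that loads clients onto Hsp70, stood at 167 and 80.5 CPM in b-gal+ cells, 93.0 and 68.9 CPM in b-gal- cells and 178 and 97.9 CPM in EpCAM-positive cells, against 34.3 and 31.9 CPM in hepatocytes. Its F4/80high difference of 1.53 (SE 0.35, adjusted p = 0.00687) was not called without either hepatocyte library (0.0525 and 0.0642). Hspa8, the constitutive Hsp70, has many near-identical copies in the genome and only 59 to 1045 reads a library, so its values are uncertain, as are the low values of Hspb1.

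A further list of 31 other chaperones and heat shock factors went the other way with TMM scaling, though not with library totals or the deposited scaling. With TMM, in F4/80high cells 3 rose and 24 fell against hepatocytes, with a median log2 difference of -0.91, and in EpCAM-positive cells 4 rose and 20 fell, with a median of -0.96. With library totals 10 rose and 6 fell in F4/80high cells (median 0.15) and 14 rose and 4 fell in EpCAM-positive cells (median 0.46), and the deposited scaling gave like counts (11 and 6, 12 and 5). Set against the shift of all genes, the list lay below the median of all genes in both scalings and the 35 genes above it. The list's share of all reads was 0.438% and 0.398% in b-gal+ libraries, 0.386% and 0.361% in b-gal- libraries and 0.554% and 0.484% in EpCAM-positive libraries, against 0.543% and 0.445% in hepatocytes. On that scale EpCAM-positive cells and hepatocytes overlapped, and all 4 F4/80high libraries were below both hepatocyte libraries. The genes of this list with the lowest adjusted p were Hspd1 and Hspa9, chaperones of the mitochondrial matrix. Hspd1 averaged 28.9 ± 7.07 CPM in F4/80high cells (SD, 4 libraries) and 305 ± 38.1 CPM in hepatocytes (SD, 2 libraries). Hspa9 averaged 112 ± 22.8 CPM in F4/80high cells and 1032 ± 66.6 CPM in hepatocytes. Hspb8, a small chaperone that works with BAG3, averaged 1.22 ± 0.542 CPM in F4/80high cells and 449 ± 105 CPM in hepatocytes.

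Other lists of the same pathways are set beside the share of all genes tested. Of all genes 34.8% were called higher and 31.4% lower in F4/80high cells, and 33.5% higher and 29.1% lower in EpCAM-positive cells. Of 15 further NF-kB subunits and feedback genes, 12 rose and none fell in F4/80high cells, and 13 rose and none fell in EpCAM-positive cells, with medians of 2.17 and 2.39. Nfkbiz, an early-induced nuclear member of the IkB family, averaged 450 ± 170 CPM in F4/80high cells and 21.4 ± 6.90 CPM in hepatocytes. Of 43 other early response genes, 25 rose and 4 fell in F4/80high cells, and 28 rose and 5 fell in EpCAM-positive cells. Ppp1r15a, which restores translation after stress, averaged 485 ± 77.6 CPM in F4/80high cells and 26.9 ± 6.76 CPM in hepatocytes. Of 14 other feedback phosphatases and ERK inhibitors, 10 rose and 3 fell in F4/80high cells, and 11 rose and 2 fell in EpCAM-positive cells. Errfi1, a feedback inhibitor of EGF receptor that is itself an early gene, was the opposite case, at 28.6 ± 3.06 CPM in F4/80high cells and 2773 ± 175 CPM in hepatocytes (log2 difference -6.58, SE 0.53, adjusted p = 4.8e-05). Of 19 bZIP partners of AP-1, 12 rose and 3 fell in F4/80high cells, and 11 rose and 5 fell in EpCAM-positive cells. Of 27 upstream kinases and serum response factors tested, 13 rose and 4 fell in F4/80high cells, and 14 rose and 4 fell in EpCAM-positive cells. Atf5, a bZIP factor of the amino acid and mitochondrial stress response, fell by 6.11 in F4/80high cells, at 11.9 ± 0.801 CPM, against 854 ± 28.3 CPM in hepatocytes. Errfi1 and Atf5 thus had their highest levels in hepatocytes, unlike the 35 genes.

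**Figure D3:**
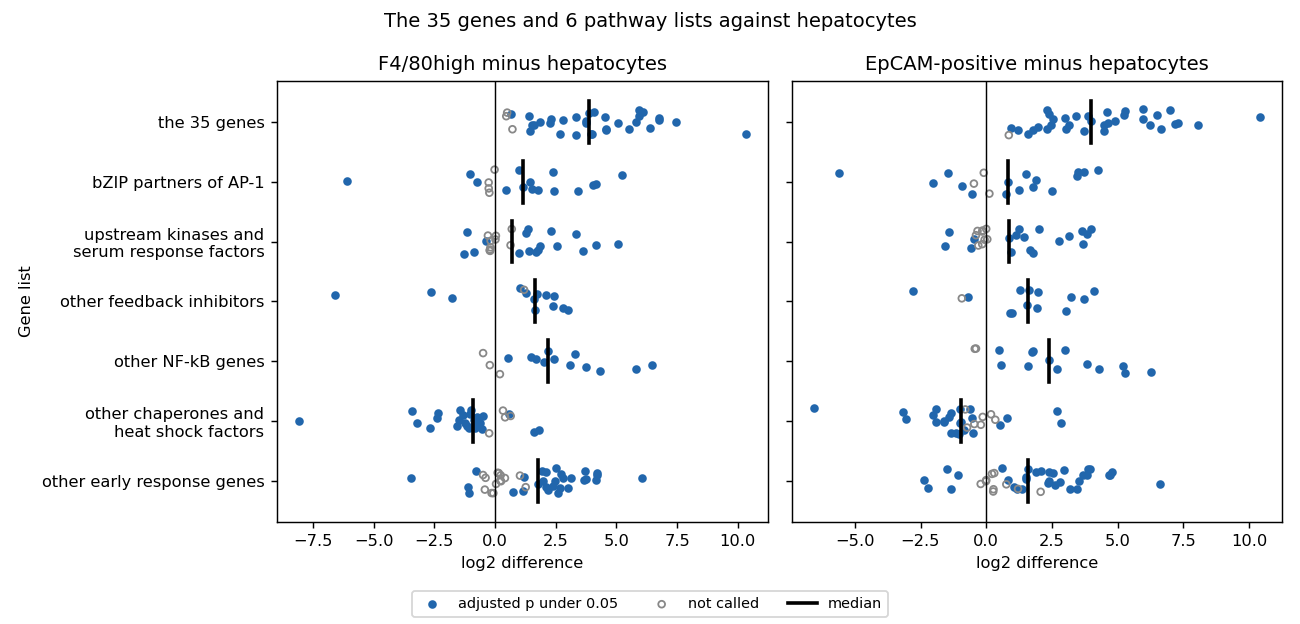
Log2 difference from hepatocytes (x axis) of each of the 35 genes and of each gene in 6 pathway lists (rows), in F4/80high cells (left) and EpCAM-positive cells (right); filled points passed adjusted p under 0.05, and black bars are list medians. The 35 genes have medians of 3.87 and 3.98, and the other chaperones and heat shock factors -0.91 and -0.96 under TMM scaling, which become 0.15 and 0.46 with library totals.

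Setting b-gal+ F4/80high cells against b-gal- ones asks how these genes differ between cells of 1 antibody gate that passed the same steps of isolation. In b-gal+ cells 8 of the 35 genes rose and 1 fell. These 9 calls are 25.7% of the 35, near the 23.3% of all genes called in either direction. By direction they were uneven: 22.9% of the 35 were called higher, against 10.4% of all genes, and 2.86% were called lower, against 13%. This split depended on the scaling. With library totals 5 members were called higher and 2 lower, and with the deposited scaling 4 higher and 2 lower. Hspb1 was the second lower gene in both. With DESeq2 size factors 11 members were called higher and 0 lower, where 51.3% of all called genes were higher. The levels of both b-gal+ libraries were above both b-gal- libraries for 24 genes, where 33.8% of all genes were, and below them for 4 genes, where 35.2% were. The median log2 difference was 0.73 over the 35 genes and -0.02 over all genes tested. By library totals or the deposited scaling the median of all genes moved by -0.13 each, and the share of higher among all called genes was 34.1% and 32.5%, against 44.4% with TMM. The median of the 35 genes stayed between 0.57 and 0.97 under the 18 alternatives.

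**Figure D4:**
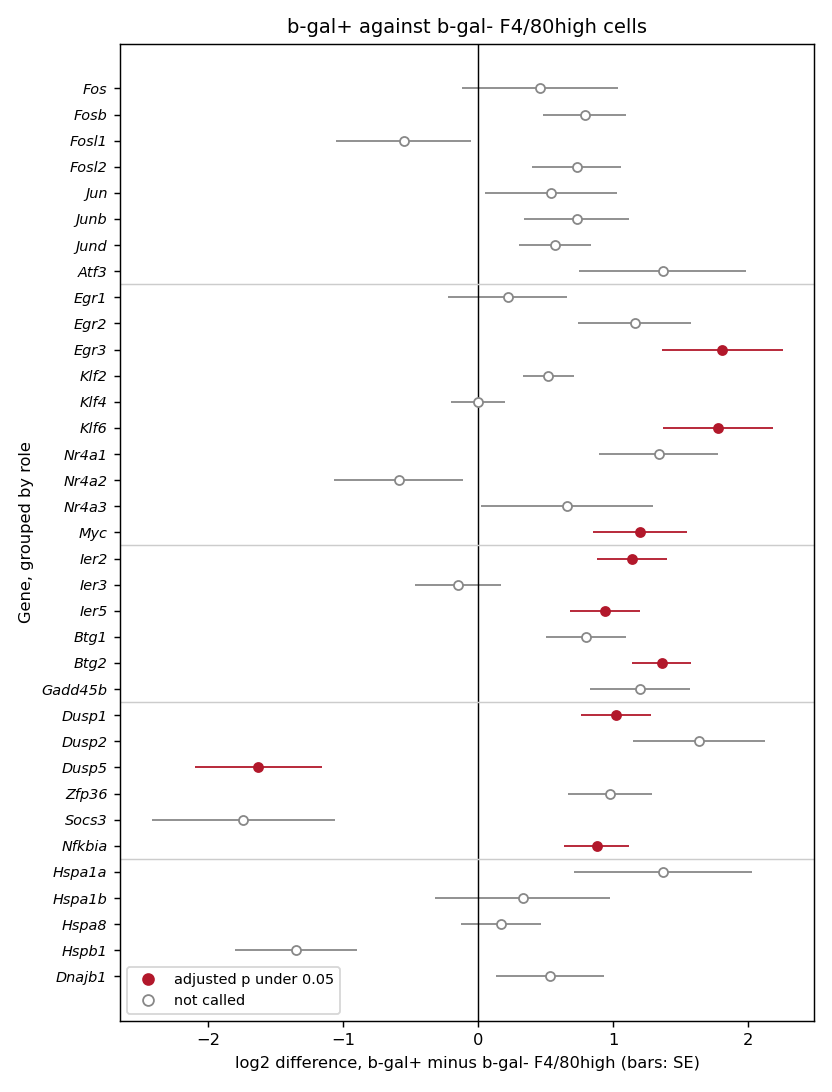
Log2 difference between b-gal+ and b-gal- F4/80high cells (x axis; points, with standard errors as bars) for the 35 genes (rows, grouped by role); filled points passed adjusted p under 0.05. Most points lie right of 0, the 8 called higher lie between 0.88 and 1.81, and Dusp5 is the 1 called lower.

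Among the zinc finger and nuclear receptor factors 3 of 10 rose in b-gal+ cells. Klf6, a factor induced early in liver injury, stood at 996 and 1127 CPM in b-gal+ cells, against 367 and 257 CPM in b-gal- cells. The groups did not overlap, and the log2 difference was 1.78 (SE 0.41, adjusted p = 0.0221). Egr3 stood at 59.7 and 41.0 CPM in b-gal+ cells, against 14.9 and 12.6 CPM in b-gal- cells (1.81, SE 0.45, adjusted p = 0.0293). Myc stood at 76.9 and 102 CPM in b-gal+ cells, against 50.2 and 28.8 CPM in b-gal- cells (1.20, SE 0.35, adjusted p = 0.0469). Egr1 overlapped, at 1622 and 1282 CPM in b-gal+ cells and 1179 and 1299 CPM in b-gal- cells, and Klf4 differed by -0.00 (SE 0.20).

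Of the early response and growth arrest genes 3 of 6 rose in b-gal+ cells. Btg2, an inhibitor of proliferation on chromosome 1 (134075170 to 134079120, GRCm38), had the lowest adjusted p of the 35. It stood at 800 and 818 CPM in b-gal+ cells, against 325 and 304 CPM in b-gal- cells (1.36, SE 0.22, adjusted p = 0.00589). Ier2 stood at 520 and 503 CPM in b-gal+ cells, against 227 and 236 CPM in b-gal- cells (1.14, SE 0.26, adjusted p = 0.0198). For both genes the replicates of a group lay close together and the groups were well apart. Ier5 stood at 314 and 378 CPM in b-gal+ cells, against 186 and 173 CPM in b-gal- cells (0.94, SE 0.26, adjusted p = 0.0422).

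The feedback inhibitors were split in b-gal+ cells. Dusp1 differed by 1.02 (SE 0.26, adjusted p = 0.0307) on the values given above. Nfkbia stood at 777 and 810 CPM in b-gal+ cells, against 473 and 393 CPM in b-gal- cells (0.88, SE 0.24, adjusted p = 0.0380). Dusp5, a nuclear phosphatase of ERK, went the other way, at 17.9 and 7.04 CPM in b-gal+ cells, against 43.0 and 30.1 CPM in b-gal- cells (-1.63, SE 0.47, adjusted p = 0.0483). Socs3 had no overlap either, at 228 and 95.9 CPM in b-gal+ cells and 520 and 472 CPM in b-gal- cells, but did not pass (-1.74, SE 0.68, adjusted p = 0.116).

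No AP-1 gene and no heat shock gene passed between b-gal+ and b-gal- cells with limma, where 1 of 8 and 1 of 5 had an unadjusted p under 0.05. With edgeR 0 of 8 and 0 of 5 passed, and with DESeq2 0 of 8 and 1 of 5. Other limma settings did call some: Fosb without EpCAM-positive replicate 1 or 2 (adjusted p = 0.00895 and 0.00807) and Atf3 with only the groups compared (0.0142), both higher in b-gal+ cells. Hspb1 was called lower in 6 of the 18 alternatives, DESeq2 among them (0.0282 to 0.0499). Fos differed by 0.46 (SE 0.58, adjusted p = 0.639), Jun by 0.54 (SE 0.49, adjusted p = 0.494) and Atf3 by 1.37 (SE 0.62, adjusted p = 0.169). These SEs come from the fit of all 8 libraries, so replicate gaps of EpCAM-positive cells and hepatocytes enter them. For Fos the log2 gap, replicate 1 minus replicate 2, was 0.10 for b-gal+, 0.05 for b-gal-, -0.60 for EpCAM-positive and 1.87 for hepatocyte libraries. In that order the gaps were 0.13, -0.09, -1.12 and 1.07 for Jun and 0.13, 0.47, -1.65 and 1.44 for Atf3. For 7 of the 8 AP-1 genes, all but Fosl1, both b-gal+ libraries were above both b-gal- libraries. Of all genes tested 33.8% were so placed, and 35.2% had both b-gal+ libraries below. Fos was not called in any of the 18 alternatives, where its adjusted p was 0.364 to 0.837.

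The b-gal+ calls were not firm. With 1 library left out, its group held 1 library. Fewer members and fewer of all genes were then called, except without either EpCAM-positive replicate. The median log2 difference of the members was 0.64 and 0.89 without b-gal+ replicate 1 or 2. Without b-gal- replicate 1 or 2 it was 0.97 and 0.67. It was 0.73 without either EpCAM-positive library and 0.77 without either hepatocyte library, against 0.73 with all libraries. At an unadjusted p under 0.05, 19 members differed with all libraries. EdgeR called 4 (Btg2, Egr3, Ier2 and Klf6), all higher, where it called 20.7% of all genes. DESeq2 called 17, of which 15 were higher, where it called 30.2% of all genes. Btg2 was lost in 1 of the 18 alternatives, without b-gal- replicate 2 (adjusted p = 0.0578). Klf6 was lost without either b-gal+ library or b-gal- replicate 2 (0.0852 to 0.144), and Ier2 without any of the 4 F4/80high libraries (0.0913 to 0.111). Egr3 was lost in 6, without any of the 4 F4/80high or 2 hepatocyte libraries (0.0610 to 0.162). Myc was lost in 9 (0.0579 to 0.265), Dusp1 in 10 (0.0640 to 0.155), Ier5 in 10 (0.0560 to 0.204), Nfkbia in 10 (0.0513 to 0.236) and Dusp5 in 12 (0.0516 to 0.239). Beside these differences, 11 of 12 Kupffer markers rose in b-gal+ cells (median 3.53) and 11 of 12 sinusoidal endothelial markers fell (median -3.22), and their part in the differences was not tested.

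Pathway lists around these genes held calls in both directions between b-gal+ and b-gal- cells, where 10.4% of all genes were called higher and 13% lower. Of 19 bZIP partners 5 rose and none fell, among them Jdp2, an AP-1 repressor, at 180 ± 49.6 CPM in b-gal+ cells and 36.7 ± 2.73 CPM in b-gal- cells, and Cebpb, a factor of macrophage activation, at 563 ± 58.6 CPM in b-gal+ cells and 150 ± 91.1 CPM in b-gal- cells (SD, 2 libraries each). Of 14 other feedback phosphatases and ERK inhibitors 1 rose and 6 fell. Spry4, an inhibitor of receptor tyrosine kinase signalling, averaged 11.2 ± 3.39 CPM in b-gal+ cells and 106 ± 1.97 CPM in b-gal- cells, the same direction as Dusp5. Of 27 upstream genes 5 rose and 5 fell, and Elk3, an SRF partner, averaged 110 ± 11.6 CPM in b-gal+ cells and 633 ± 101 CPM in b-gal- cells. Of 43 other early response genes 9 rose and 7 fell. Plk2 averaged 187 ± 19.1 CPM in b-gal+ cells and 637 ± 17.9 CPM in b-gal- cells, and Id2 averaged 506 ± 42.3 CPM in b-gal+ cells and 207 ± 6.90 CPM in b-gal- cells. Of 15 other NF-kB genes 1 rose, and of 31 other chaperones 3 rose and 1 fell.

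Between F4/80high and EpCAM-positive cells 3 of the 35 genes rose and 4 fell with TMM scaling, whereas 1 rose and 8 fell with library totals, and 1 rose and 6 fell with the deposited scaling. These 7 calls are 20.0% of the 35, near the 19.8% of all genes called; 9.20% of all genes were called higher and 10.6% lower. Every F4/80high library was above both EpCAM-positive libraries for 3 of the 35 genes and below them for 4, and among all genes 15.6% were above and 15.6% below. Klf2 stood at 952 and 941 CPM in b-gal+ and 606 and 715 CPM in b-gal- cells, against 403 and 340 CPM in EpCAM-positive cells (1.09, SE 0.16, adjusted p = 0.00654), and it was the 1 call kept in all 18 alternatives. Klf4 stood at 358 and 307 CPM in b-gal+ and 321 and 346 CPM in b-gal- cells, against 215 and 178 CPM in EpCAM-positive cells (0.76, SE 0.17, adjusted p = 0.0254). Dusp1, with the values given above, differed by 0.89 (SE 0.22, adjusted p = 0.0347). These 3 genes were higher in every F4/80high library than in either EpCAM-positive library. The 4 that fell were Egr3 (-1.46, SE 0.39, adjusted p = 0.0427), the orphan receptor Nr4a2 (-1.48, SE 0.42, adjusted p = 0.0499), Dusp5 (-1.54, SE 0.41, adjusted p = 0.0416) and Hspb1 (-1.66, SE 0.39, adjusted p = 0.0287). Nr4a2 stood at 15.9 and 11.9 CPM in b-gal+ and 23.5 and 18.5 CPM in b-gal- cells, against 78.2 and 29.5 CPM in EpCAM-positive cells. Egr3 overlapped between the groups, its b-gal+ libraries being near EpCAM-positive replicate 2 at 44.5 CPM. Scaling moved the split here too: of all called genes 46.5% were higher with TMM, 18.6% with library totals and 25.9% with the deposited scaling, and Dusp1 and Klf4 were then not called (adjusted p 0.0848 to 0.114). Leaving out a library left 1 library in that group, and fewer of all genes were then called, except without EpCAM-positive replicate 1. The median log2 difference of the 35 genes was -0.47 and -0.31 without b-gal+ replicate 1 or 2. It was -0.46 and -0.32 without b-gal- replicate 1 or 2. Without EpCAM-positive replicate 1 or 2 it was -0.48 and -0.34, and without either hepatocyte library -0.37.

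How far the replicates of a group lay apart differed between groups. The median absolute log2 difference between replicates over the 35 genes was 0.27 in b-gal+ cells, 0.34 in b-gal- cells, 0.66 in EpCAM-positive cells and 0.48 in hepatocytes. Over all genes tested it was 0.22, 0.21, 0.41 and 0.25 in the same groups. In EpCAM-positive cells 11 of the 35 genes differed by more than 1 between replicates (31.4%, against 20.9% of all genes), in hepatocytes 7 (20.0%, against 4.66%), in b-gal+ cells 5 (14.3%, against 5.36%) and in b-gal- cells 3 (8.57%, against 6.15%). The EpCAM-positive replicates did not differ in 1 direction. Replicate 2 was higher for Jun (1433 CPM in replicate 1 and 3111 CPM in replicate 2), Egr1 (1519 and 3241 CPM), Atf3 (595 and 1869 CPM), Fosb (995 and 2029 CPM) and Klf6 (484 and 1080 CPM). Replicate 1 was higher for Hspa1a (270 CPM in replicate 1 and 77.3 CPM in replicate 2), Nr4a3 (166 and 48.4 CPM), Dusp2 (121 and 39.1 CPM), Egr3 (119 and 44.5 CPM) and Nr4a2 (78.2 and 29.5 CPM). The EpCAM-positive replicates also differed in markers of other cells. Neutrophil markers summed to 417 CPM in replicate 1 and 27.6 CPM in replicate 2, Kupffer markers to 1392 and 278 CPM, dendritic cell and monocyte markers to 1382 and 430 CPM and B and plasma cell markers to 4318 and 1668 CPM. Cholangiocyte markers (2129 and 7036 CPM) and hepatocyte markers (711 and 5026 CPM) were higher in replicate 2. The part of these cells in the spread was not tested. In hepatocytes the largest gaps were in Socs3 (36.8 CPM in replicate 1 and 8.78 CPM in replicate 2) and Fos (76.0 and 20.4 CPM).

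**Figure D5:**
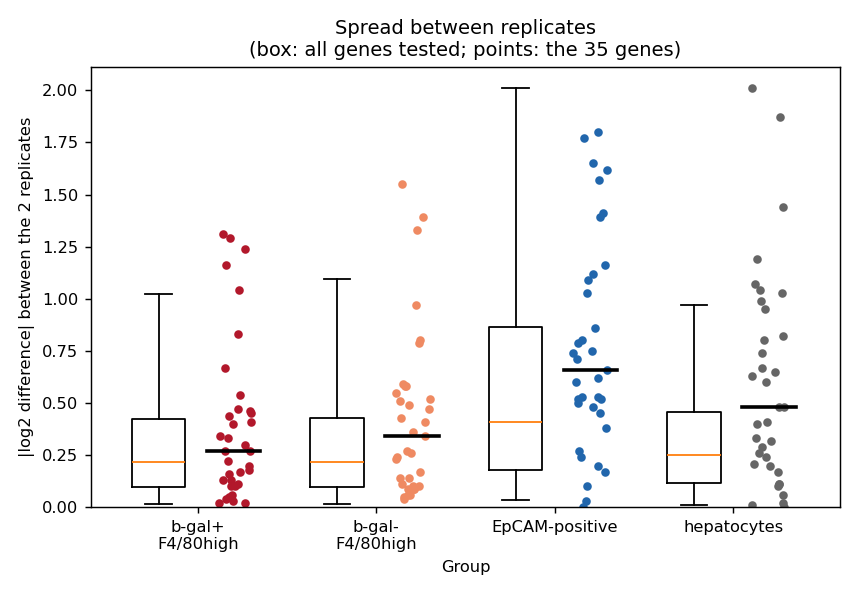
Absolute log2 difference between the 2 replicates of each group (y axis); boxes show the quartiles, and whiskers the 5th and 95th percentiles, over all genes tested, and points are the 35 genes with their median as a black bar. Medians of the 35 genes run from 0.27 in b-gal+ cells to 0.66 in EpCAM-positive cells.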

How the data were processed

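The 8 libraries each have 1 deposited table of values per gene symbol. Reads were counted with HTSeq on GRCm38.p4 (mm10), per the submitters' processing notes; the aligner, annotation, strand setting and scaling are not given in the sources used here. Hepatocyte replicate 1 was deposited as plain counts. In the other 7 tables the authors' deposited values are counts multiplied by 1 factor per library (1.0806 to 1.5423), and dividing by it gave whole reads for 100.0% of values within 0.01; these recovered counts were used. From each file, 14 rows whose symbols had become dates (0.0514% to 0.1821% of reads) were left out.

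Levels are CPM of these counts with TMM factors (edgeR 4.0.16; 0.5273 to 1.4849). All 8 libraries entered 1 limma 3.58.1 trend fit (R 4.3.3) on log2(CPM + 0.5), with genes filtered by filterByExpr and Benjamini-Hochberg adjustment over the 14404 genes tested. F4/80high is the mean of b-gal+ and b-gal-, with equal weight. A fold is on the log2(CPM + 0.5) scale and understates that of low genes. The fit was tested on simulated counts first. DESeq2 1.42.0 and edgeR's quasi-likelihood test were among 18 alternatives. Ratios of summed reads have exact 95% intervals, and gene locations are from GENCODE M21 (GRCm38). Genes of the pathway lists named in the text were taken from the 4 called genes of lowest adjusted p whose 8 libraries averaged 10 CPM or more. The 35 genes, the pathway and marker lists and the tests were chosen with earlier results of these data known. Of the other marker lists, T and NK cells summed to 1.77 to 87.6 CPM per library, neutrophils to 2.47 to 417, stellate cells and fibroblasts to 166 to 1213, and dendritic cells and monocytes to 14.6 to 1382.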

Additional observations from a re-analysis of the deposited data

How the results depend on the processing

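Against hepatocytes, 30 of 32 calls in F4/80high cells and 33 of 34 in EpCAM-positive cells held in all 18 alternatives; the exceptions were Ier2, Dnajb1 and Btg1. Between b-gal+ and b-gal- cells 0 of 9 did, and between F4/80high and EpCAM-positive cells 1 of 7 did. The causes of the changes below were not tested.

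In the b-gal+ against b-gal- comparison 9 members were called in the main analysis, 4 with no filter on low counts, 4 with edgeR, 17 with DESeq2 and 14 with only the groups compared. Of all genes in each fit 23.3%, 17.7%, 20.7%, 30.2% and 32.0% were called in the same order. With library totals or the deposited scaling 23.7% of all genes were called, and with DESeq2 size factors 24.3%. With libraries left out in turn the count was 0 to 12, and that of all genes called 1289 to 4366. For the lists, left-out libraries gave 0 to 8 bZIP partners, 3 to 13 upstream genes, 3 to 8 feedback genes, 0 to 4 NF-kB genes, 1 to 7 chaperones and 2 to 19 other early genes. Of bZIP partners 5 were called, 3 with edgeR and 8 with only the groups compared. Of upstream genes 10 were called, and 6 with library totals, the deposited scaling or no filter. Of NF-kB genes 1 was called, 2 with DESeq2 size factors, 6 with DESeq2 and 5 with only the groups compared. Of chaperones 4 were called, 2 with library totals or the deposited scaling, 8 with DESeq2 size factors, 10 with DESeq2 and 7 with only the groups compared.

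Between F4/80high and EpCAM-positive cells 7 members were called, 3 with no filter or only the groups compared, and 1 to 7 with libraries left out, where all genes called ran from 1500 to 4045. Left-out libraries gave 2 to 8 bZIP partners, 1 to 7 upstream genes, 2 to 6 feedback genes, 0 to 1 NF-kB genes, 1 to 7 chaperones and 5 to 10 other early genes. Of all genes in each fit 19.8% were called in the main analysis, 15.0% with no filter and 14.2% with only the groups compared. With library totals the share was 23.1%, with the deposited scaling 19.6%, with edgeR 19.0% and with DESeq2 26.6%. With only the groups compared 4 bZIP partners (of 7) and 7 other early genes (of 11) were called. Of NF-kB genes 1 was called, 3 with library totals and 2 with the deposited scaling. Of chaperones 3 were called, 10 with library totals, 8 with the deposited scaling, 5 with edgeR and 8 with DESeq2. Against hepatocytes 27 chaperones were called in F4/80high cells, 16 with library totals and 17 with the deposited scaling.

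Replicate numbers are shared by all groups, but no label says that they pair libraries. Differences between replicates correlated across genes between groups (r = 0.18 to 0.49 for the 6 pairs of groups). With a replicate block 15 members, Fosl2 among them (adjusted p = 0.0269, higher), and 5 NF-kB genes were called between b-gal+ and b-gal- cells. In that fit 28.2% of all genes were called.

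Changes of sign occurred only for differences that were not called in the main analysis. Among these, Fosb for F4/80high minus EpCAM-positive cells was called at its low end (-0.61), without EpCAM-positive replicate 1. Leaving out libraries in turn gave, for b-gal+ minus b-gal- cells, log2 differences of -1.31 to 0.22 for Fosl1, -0.34 to 0.99 for Hspa1b, -0.56 to 0.31 for Ier3 and -0.12 to 0.15 for Klf4, and Klf4 was 0.09 with DESeq2 or its size factors and 0.01 with only the groups compared. For F4/80high minus EpCAM-positive cells, the ranges were -0.42 to 0.18 for Fos, -0.61 to 0.42 for Fosb, -0.93 to 0.19 for Jun, -0.70 to 0.00 for Junb, -0.91 to 0.24 for Klf6, -0.42 to 0.10 for Zfp36, -0.28 to 0.47 for Ier5, -0.92 to 0.71 for Dusp2, -0.73 to 1.07 for Hspa1a, -1.17 to 0.41 for Hspa1b, -0.34 to 0.19 for Nr4a1 and -0.73 to 0.03 for Fosl1. The fitted values of Fosl1 rest on at most 25 reads a library and are not folds. Most of the extremes came from leaving out an EpCAM-positive library. Ier5 was -0.27 with library totals and -0.15 with the deposited scaling. Hspa1a was -0.20 and -0.08 in those, -0.00 by edgeR and -0.02 by DESeq2.

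Depth limits Fosl1, Egr3 and Nr4a3, with 0 to 2 reads in hepatocyte libraries, and also Egr2 (11 and 2 reads) and Dusp2 (4 and 3 reads) there.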

Other observations

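Some of the 35 genes differed between replicates in the same direction in all 3 sorted groups. In b-gal+, b-gal- and EpCAM-positive cells alike, the library numbered 1 was higher than the library numbered 2 for 12 genes (34.3%, against 22.5% of all genes tested), and the library numbered 2 was higher for 4 (11.4%, against 20.5%). The 12 were Fosl1, Fosl2, Egr2, Egr3, Nr4a1, Nr4a2, Nr4a3, Dusp2, Dusp5, Hspa1a, Hspa1b and Dnajb1, and the 4 were Jund, Dusp1, Zfp36 and Hspa8. Any difference counted, however small: Dusp1 stood at 1084 and 1087 CPM in EpCAM-positive cells, and Fosl1 rests on 0 to 25 reads a library. Nr4a3, Dusp5, Hspa1a and Hspa1b differed by more than 0.5 on the log2 scale in each of the 3 groups. Nr4a3 stood at 81.5 CPM in the library numbered 1 and 32.6 CPM in the library numbered 2 in b-gal+ cells, at 39.5 and 26.8 CPM in b-gal- cells and at 166 and 48.4 CPM in EpCAM-positive cells. Summed markers of 4 cell types were also higher in the library numbered 1 in each of these groups. Neutrophil markers stood at 223 CPM in the library numbered 1 and 153 CPM in the library numbered 2 in b-gal+ cells, at 413 and 37.9 CPM in b-gal- cells and at 417 and 27.6 CPM in EpCAM-positive cells. Dendritic cell and monocyte markers stood at 359 and 213, 892 and 425, and 1382 and 430 CPM in the same order of groups and libraries, stellate cell and fibroblast markers at 952 and 166, 1213 and 823, and 990 and 688 CPM, and Kupffer cell markers at 41401 and 38290, 4177 and 2764, and 1392 and 278 CPM. Single markers did not all follow these sums. In b-gal+ cells Clec4f (8530 and 10238 CPM), Timd4, C1qa, C1qb, C1qc and Csf3r (101 and 143 CPM) were higher in the library numbered 2. So were the dendritic cell and monocyte markers Clec9a (35.7 and 60.1 CPM), Batf3 (30.6 and 46.3 CPM), Xcr1 and Cd209a. In b-gal- cells Clec9a (58.4 and 95.6 CPM), Zbtb46 (67.4 and 83.4 CPM), Batf3, Flt3, Siglech and Cd209a were higher in that library. Clec4f, Vsig4, Des, Rgs5 and Hhip were also higher in it in b-gal- cells, and Rgs5 and Cd209a in EpCAM-positive cells. Lrat was higher in the library numbered 2 in each of the 3 groups, at 24.6 and 28.2, 32.4 and 116, and 19.1 and 55.8 CPM. The part of these cell types in the pattern was not tested. The 16 genes were picked after their values were seen, no test was run on them, and no label says what the numbers share.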
